A study of Rattus norvegicus with 28 samples.

Results

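Cultured rat glioma cells given desipramine were compared directly with the same cells given diazepam, on the 6 desipramine arrays and the 4 diazepam arrays of a series of 28. All arrays labelled with either drug were taken, and this pair of drugs was chosen with earlier results of these data known. Desipramine is a tricyclic antidepressant that blocks reuptake of noradrenaline and, less strongly, of serotonin. Diazepam is a benzodiazepine, without antidepressant properties in the design, that enhances the opening of GABA-A receptors by their transmitter. The design uses diazepam as a psychoactive drug against which antidepressant responses can be set.

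The cells were of line C6, a rat glial tumour induced by N-nitrosomethylurea and used as a model of astrocytes, at passage 3 after thawing. Desipramine cells and diazepam cells had each been without serum for 24 h and then received 25 µM of the drug for 2 h, and the untreated cells, which stand beside them here with 6 arrays, had the same 24 h without serum. The labels call the replicates biological but do not say whether the cultures were independent, so p-values measure the spread between these samples. The design planned 6 diazepam replicates, 2 of which failed the authors' quality control, and a vehicle for the untreated cells is not given in the sources used here. A single dose and time in 1 tumour line limit the model, and bulk RNA cannot tell fewer cells of a kind from less RNA per cell.

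Markers of cell types were looked up on the arrays. Of 9 astrocyte markers with a probe, 7 were detected (detection p under 0.05) on all 10 arrays, among them Gfap and Vim, filament proteins of astrocytes, S100b, a calcium-binding protein, and Gja1, the gap junction protein connexin 43. The water channel gene Aqp4 was detected on none. Of 6 microglia markers, 4 were detected on none of the 10 arrays, and of 4 endothelium markers, 3. The rest were detected on some desipramine and diazepam arrays: Cx3cr1 on 3 and 4, Itgam on 0 and 3, and Cldn5 on 5 and 3. Neuron and oligodendrocyte markers were mixed. Detected on all 10 arrays were 4 of 9 neuron markers (Map2, Nefl, Nefm and Gad1). So were 5 of 9 oligodendrocyte markers (Cnp, Olig1, Sox10, Cspg4 and Pdgfra). The synaptic gene Snap25 and the myelin gene Mog were detected on none.

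The first genes to respond to a stimulus need no new protein to be switched on. Such immediate early genes, most of them coding for transcription factors, follow activation of the ERK branch of MAP kinase signalling. That branch also induces its own brakes, the Sprouty adaptor proteins and the dual-specificity phosphatases (DUSP). NF-kappaB induces chemokines and adhesion molecules, and signals through bone morphogenetic protein (BMP) receptors raise the Id genes, which code for helix-loop-helix proteins that cannot bind DNA and that hold back differentiation.

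The following upstream sequences show where letters recognised by such factors lie beside genes that were higher or lower with desipramine: the chemokine genes Ccl7 and Cxcl1, the ephrin receptor gene Epha2 and the G protein regulator gene Rgs2. They were chosen after their letters were searched. Each is the stretch of 250 bases before the gene's start, 5′ to 3′ on the gene's strand, from RefSeq on rat build GRCr8, with Ccl7 at chr10:67513845-67514094 (+), Cxcl1 at chr14:17479322-17479571 (-), Epha2 at chr5:158888379-158888628 (+) and Rgs2 at chr13:58352667-58352916 (-). Capitals mark matches, on either strand, to the AP-1 motif TGANTCA, the cAMP response element TGACGTCA, its core TGACG, which the full element contains on both strands, and the kappaB motif GGANTTTCC.
Ccl7: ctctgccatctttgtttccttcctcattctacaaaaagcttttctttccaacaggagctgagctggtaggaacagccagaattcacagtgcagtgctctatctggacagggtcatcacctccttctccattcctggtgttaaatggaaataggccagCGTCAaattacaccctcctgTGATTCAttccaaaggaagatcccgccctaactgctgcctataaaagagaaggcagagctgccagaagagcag
Cxcl1: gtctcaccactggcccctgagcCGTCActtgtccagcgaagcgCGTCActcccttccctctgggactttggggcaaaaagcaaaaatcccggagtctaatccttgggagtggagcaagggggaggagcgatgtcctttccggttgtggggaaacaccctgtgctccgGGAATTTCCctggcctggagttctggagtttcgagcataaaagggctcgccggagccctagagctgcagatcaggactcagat
Epha2: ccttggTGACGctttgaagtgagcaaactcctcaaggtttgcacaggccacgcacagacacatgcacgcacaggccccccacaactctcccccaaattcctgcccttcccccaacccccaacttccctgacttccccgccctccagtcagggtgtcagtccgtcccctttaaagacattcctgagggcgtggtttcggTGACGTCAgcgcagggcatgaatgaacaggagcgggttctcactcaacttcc
Rgs2: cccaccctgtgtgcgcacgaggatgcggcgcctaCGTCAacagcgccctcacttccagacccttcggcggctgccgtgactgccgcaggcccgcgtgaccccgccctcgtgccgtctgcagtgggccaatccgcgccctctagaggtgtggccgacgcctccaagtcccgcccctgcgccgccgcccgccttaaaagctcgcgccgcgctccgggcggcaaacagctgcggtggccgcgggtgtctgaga
In Ccl7 the capitals are an AP-1 match at bases -73 to -67 from the start and a core at -93 to -89. This AP-1 match reads TGATTCA, with a T where the searched letters have N, which stands for any base. Cxcl1 holds a kappaB match at -83 to -75 and 2 cores, Epha2 a full cAMP element at -52 to -45 and a further core, and Rgs2 a single core at -216 to -212. Among all 33469 promoter windows of 300 bases, 7.33% held the AP-1 motif, 1.83% the full cAMP element, 21.2% its core and 1.28% the kappaB motif. RefSeq windows matched 18 of the 24 genes with the largest differences named below. AP-1 stood in 1 of the 8 matched genes that were higher with desipramine and in 0 of the 10 that were lower, and the kappaB motif in none of the 18. The full cAMP element stood in none of the 18 either, and its core in 1 of the 8 and 2 of the 10. A match is a run of letters and does not show binding.

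Values throughout are log2 intensities after background correction and quantile normalization, and differences are desipramine minus diazepam with their standard error (SE). Of 11364 probes, 919 (8.09%) passed an adjusted p of 0.05 in limma, 513 of them higher and 406 lower with desipramine. An unadjusted p under 0.05 was reached by 2344 of the 11364. At least 2-fold differences were mostly in 1 direction, with 44 probes higher and 6 lower. With 1 probe standing for each gene, the one brightest on average, 418 of 7958 (5.25%) were higher and 319 (4.01%) lower with desipramine. In 334 genes (4.2%) every desipramine array lay above every diazepam array, and in 244 (3.07%) every one lay below. For scale, desipramine differed from fluoxetine in 942 probes (8.29%) and from haloperidol in 939 (8.26%), with 6 arrays in each of those groups. The root mean square difference over all probes was 0.222 on the log2 scale against diazepam, 0.197 against fluoxetine and 0.202 against haloperidol.

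**Figure D1:**
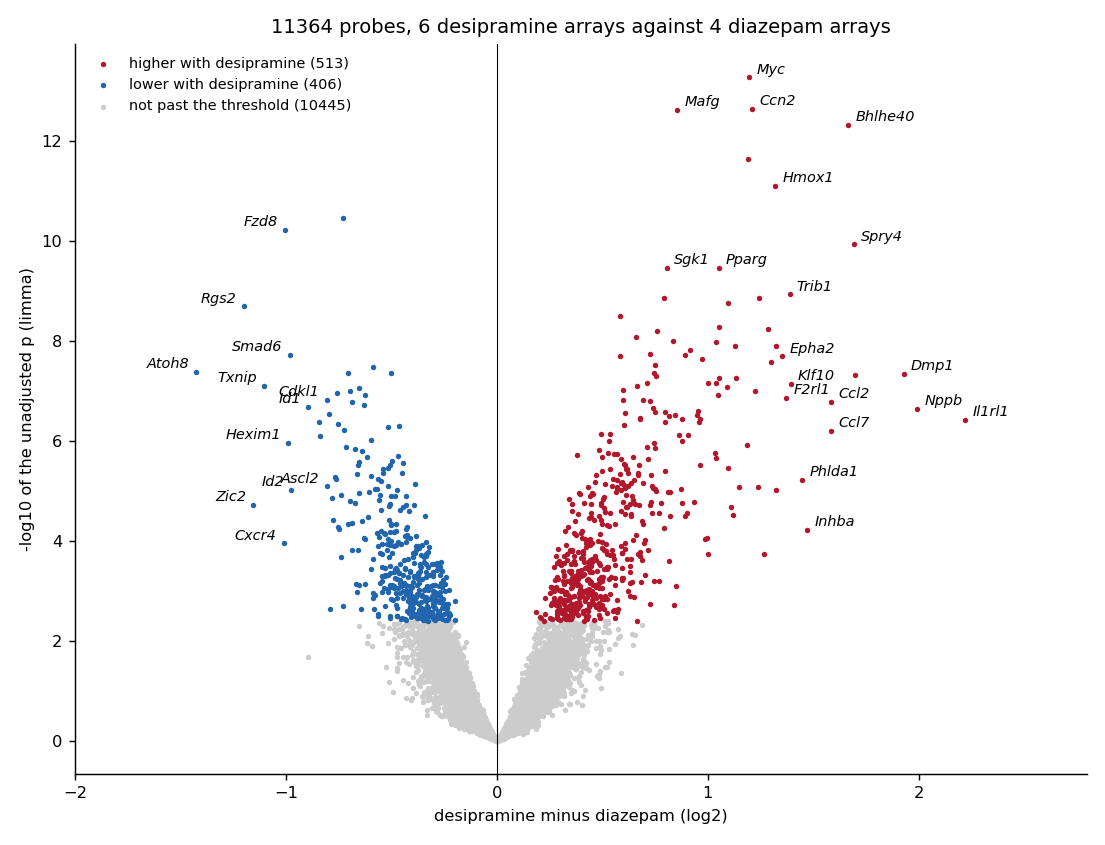
Each point is 1 of 11364 probes, with the desipramine minus diazepam difference (log2) on the x axis and -log10 of the unadjusted p on the y axis; red probes were higher and blue probes lower with desipramine at an adjusted p under 0.05. The right arm reaches 2.22 (Il1rl1) and the left arm -1.43 (Atoh8).

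The arrays themselves differed little in coverage. Probes detected per array averaged 10091 ± 176 (SD, n = 6) with desipramine and 10136 ± 307 (SD, n = 4) with diazepam (exact two-sided permutation test, p = 0.776). Pairs of arrays correlated at 0.9895 to 0.9965 within desipramine, 0.9904 to 0.995 within diazepam and 0.9849 to 0.9931 between them. The first principal component of all 28 arrays held 18.7% of the variance and was high for arrays numbered 5 and 6, and the third, with 11.1%, ran from 4.5 to 13.2 in desipramine and from -12 to -8.06 in diazepam arrays. Within the arrays numbered 1 to 4 (desipramine 1 to 4, diazepam only 1 and 4), 456 probes passed (262 higher, 194 lower). Within those numbered 5 and 6, with 2 arrays for each drug, 59 passed (47 higher, 12 lower) and 1766 had an unadjusted p under 0.05. Of the 456, 430 had the same direction in the arrays numbered 5 and 6. The share over all probes is not given here. Of the 24 named genes with the largest differences, 20 did not pass within the arrays numbered 5 and 6 alone (adjusted p from 0.0562 to 0.343), where differences such as 1.88 for Dmp1 and -1.41 for Atoh8 rested on 2 arrays a drug. Cxcr4 did not pass within those numbered 1 to 4 (adjusted p = 0.119).

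One desipramine array stood apart. On a scale where 0 is the diazepam mean and 1 the mean of the other 5 desipramine arrays, array 6 had a median position of 0.508 over the 67 named genes past the threshold. The medians of arrays 1 to 5 were 0.948, 0.952, 1.23, 1.23 and 1.24. Array 6 lay under the midpoint for 33 of the 67 genes, and its positions ranged from -0.237 to 2.39. After the means of the replicate numbers were removed, array 6 lay nearest to the fluoxetine group and diazepam array 4 nearest to untreated cells. All other arrays of the 2 drugs lay nearest to their own group. What sets desipramine array 6 apart was not tested. Without it, 1168 probes passed, 634 higher and 534 lower, and per gene 508 (6.38%) higher and 414 (5.2%) lower. Counts without array 6 are given beside the gene groups where they differ.

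**Figure D2:**
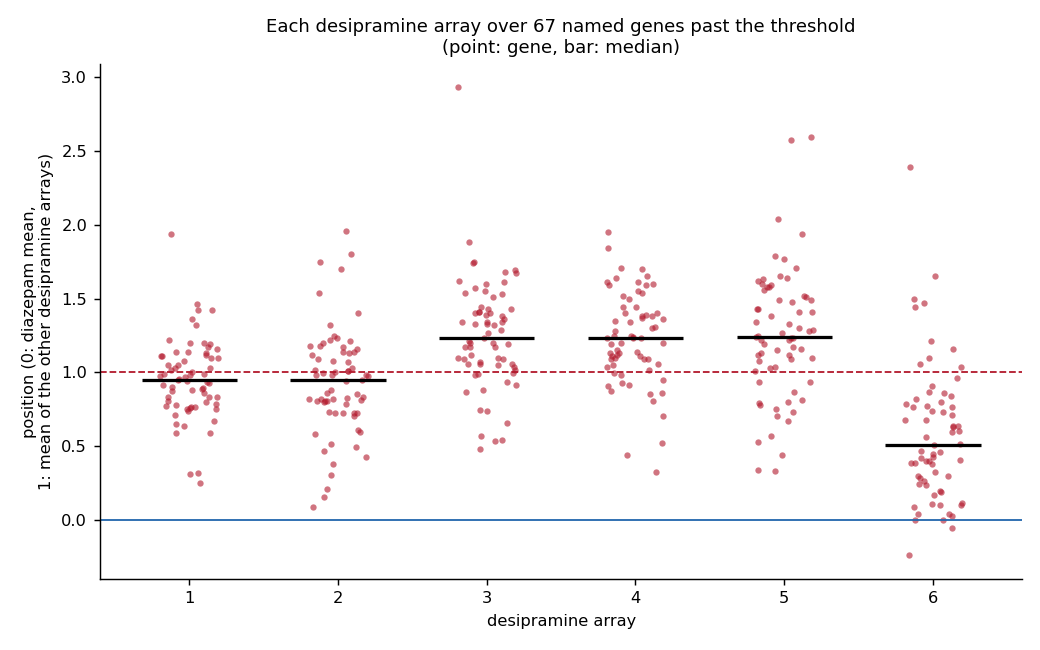
Each point is 1 of the 67 named genes past the threshold, placed for each desipramine array (x axis) on a scale from the diazepam mean (0) to the mean of the other desipramine arrays (1), with a bar at the median. Array 6 has the lowest median, 0.508.

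Among the listed inflammatory genes the difference was wide and mostly upward. This list and those below were chosen with earlier results of these data known, so their counts are not a test. Over all 7958 genes, 5.25% were higher and 4.01% lower. Of 16 measured genes on a list of NF-kappaB and inflammation genes, 10 were higher and 1 was lower with desipramine, and the median difference was 0.54, against -0.01 over all genes. Without array 6 the counts were 11 and 1. Il1rl1, the receptor for interleukin 33, had the largest difference of any named gene. Its lowest, median and highest values were 5.87, 8.36 and 9.04 in desipramine cells, against 5.74, 5.50, 6.19 and 5.74 in diazepam cells. Array 6 gave the lowest value, inside the diazepam range, and the other 5 desipramine arrays lay above every diazepam array. The difference was 2.22 ± 0.34 (adjusted p = 5.32e-05), and 2.65 ± 0.20 without array 6.

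Desipramine array 6 was the lowest of the 6 for the chemokine genes too. Ccl2, which attracts monocytes, was 10.14, 11.53 and 11.96 (lowest, median, highest) with desipramine and 10.01, 9.69, 9.94 and 9.47 with diazepam, with no overlap and a difference of 1.59 ± 0.23 (adjusted p = 2.95e-05). Ccl7, a related monocyte attractant whose upstream sequence with an AP-1 match is shown above, had 7.27, 8.87 and 9.30 against 7.42, 7.13, 7.19 and 6.62, a difference of 1.59 ± 0.25 (adjusted p = 7.96e-05) with an overlap through array 6. Cxcl1, a neutrophil chemokine whose upstream sequence holds the kappaB match, had 8.86, 10.25 and 10.53 with desipramine and 9.42, 8.92, 8.92 and 7.93 with diazepam, and the groups overlapped. The Cxcl1 difference was 1.26 ± 0.30 (adjusted p = 0.00578), and without diazepam array 6 it no longer passed (0.97 ± 0.30, adjusted p = 0.052). The lower gene of the list was Cxcr4, the receptor of the chemokine Cxcl12, with 5.79, 6.01 and 7.03 in desipramine cells and 7.23, 7.40, 7.37 and 7.07 in diazepam cells, a difference of -1.01 ± 0.23 (adjusted p = 0.00399). Other list members that passed, named after their values were seen, included Irf1 (0.60 ± 0.09), a transcription factor of the interferon response, Icam1 (0.40 ± 0.09), an adhesion molecule, and Birc3 (0.74 ± 0.14), an inhibitor of apoptosis.

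Immediate early genes were higher with desipramine in 10 of 22 measured members and lower in 2, with a median difference of 0.48. Leaving out array 6 gave 12 higher and 2 lower. Klf10, a zinc finger factor of the early TGF-beta response, was 8.68, 9.55 and 9.66 in desipramine cells and 7.96, 8.13, 8.08 and 7.90 in diazepam cells, without overlap (1.39 ± 0.20, adjusted p = 1.73e-05). Myc, the growth-promoting transcription factor, was even across arrays, with 9.39, 9.58 and 9.81 against 8.33, 8.53, 8.42 and 8.23 in diazepam cells. Its difference of 1.20 ± 0.09 (adjusted p = 6.15e-10) had the smallest p of the comparison. Ptgs2, the inducible cyclooxygenase, was 9.70, 10.63 and 11.39 with desipramine and 9.58, 9.51, 9.67 and 9.12 with diazepam (1.15 ± 0.21, adjusted p = 0.00057), and Ier3, an early gene that limits cell death, differed by 1.00 ± 0.22 (adjusted p = 0.0034).

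Not all early genes moved alike. Members named after their values were seen show the range: Junb, a subunit of AP-1, differed by 0.99 ± 0.22, Klf4 by 0.97 ± 0.13, Fos, the partner of Jun proteins, by only 0.47 ± 0.13 (adjusted p = 0.0157), and Egr1, a classical early gene, by 0.53 ± 0.17 without passing (adjusted p = 0.0506). The 2 lower members, also named afterwards, were Klf2 (-0.77 ± 0.14), a Krüppel-like factor, and the nuclear receptor gene Nr4a2 (-0.46 ± 0.11). For Maff, a small Maf factor likewise chosen and detected on all 6 desipramine arrays and on none of the 4 diazepam arrays, desipramine was at least 1.48-fold higher. Such a bound sets the brighter group against the detection limit of the arrays that missed the gene.

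Brakes of receptor and MAP kinase signals were higher with desipramine in 9 of 19 measured members and lower in 2, also without array 6. Spry4, a Sprouty inhibitor of the path from growth factor receptors to ERK, was 7.00, 7.24 and 7.84 in desipramine cells and 5.57, 5.44, 5.36 and 6.12 in diazepam cells, without overlap (1.69 ± 0.17, adjusted p = 1.49e-07). Array 6, at 7.09, was within the range of the other desipramine arrays. Dusp6, a phosphatase specific for ERK, differed by 1.05 ± 0.15 (adjusted p = 2.46e-05). Dusp8, a phosphatase acting mainly on JNK and p38, was detected on 6 of 6 desipramine and 0 of 4 diazepam arrays and was at least 1.83-fold higher (adjusted p = 1.45e-05). Spry2 (0.95 ± 0.14) and Spry1 (0.64 ± 0.12), named after their values were seen, were higher too.

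In the opposite direction stood Rgs2, a regulator that shortens signals of Gq-coupled receptors. It measured 6.94, 7.04 and 7.65 with desipramine and 8.34, 8.68, 8.51 and 7.79 with diazepam, without overlap, a difference of -1.20 ± 0.14 (adjusted p = 1.46e-06). The phosphatase gene Dusp1, which is also a target of cAMP and of glucocorticoids, was lower by the same comparison (-0.78 ± 0.15, adjusted p = 0.000785). Targets of cAMP and CREB as a list were divided, 4 of 18 higher and 4 lower, with a median of -0.02, and 5 and 4 without array 6. Sgk1, a kinase of ion transport, was among the higher ones, with 11.31, 11.45 and 11.62 against 10.46, 10.77, 10.79 and 10.62 (0.81 ± 0.09, adjusted p = 3.65e-07).

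Secreted factors differed in the same direction as the early genes. Of 16 measured growth and neurotrophic factor genes, 5 were higher with desipramine and 0 lower in limma, or 6 and 2 without array 6. At an unadjusted p under 0.05, which 2344 of all 11364 probes reached, 8 were higher and 3 lower. Nppb, which codes for the precursor of B-type natriuretic peptide, was 6.11, 7.50 and 8.57 in desipramine cells and 5.30, 5.18, 5.58 and 5.65 in diazepam cells, of which 3 of 4 arrays detected it (1.99 ± 0.30, adjusted p = 3.83e-05). Inhba, the activin A subunit, was 7.88, 8.86 and 9.16 against 7.78, 7.22, 7.22 and 6.74 (1.47 ± 0.31, adjusted p = 0.00244), with desipramine array 6 only just above the highest diazepam array. Hbegf, a ligand of the EGF receptor, differed by 0.65 ± 0.18 (adjusted p = 0.023), a call that was lost without any 1 of 4 single arrays (desipramine 3 or 4, diazepam 1 or 6; adjusted p 0.0519 to 0.0875). Areg, another ligand of that receptor, was detected on 4 of 6 desipramine arrays, and on no diazepam or untreated array. These 4 detections alone meet the filter of 4 arrays, so its adjusted p (0.0114 in limma) is not taken as support. The bound of at least 1.28-fold concerns group means. Desipramine array 6 (4.90) lay below every diazepam array (lowest 4.91), so the groups overlapped. Areg is counted among the 5 higher genes here and among the higher cAMP targets.

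Genes outside these groups were among the largest differences. Dmp1, a matrix phosphoprotein of mineralised tissue, had 7.81, 9.12 and 9.78 in desipramine cells and 7.14, 6.92, 6.94 and 6.89 in diazepam cells (1.93 ± 0.26, adjusted p = 1.32e-05). Bhlhe40, a repressor that also acts in the circadian clock, had 10.46, 11.05 and 11.30 against 9.23, 9.39, 9.33 and 9.36 (1.67 ± 0.14, adjusted p = 1.38e-09). Neither gene overlapped between the groups. Phlda1, a regulator of cell survival, differed by 1.45 ± 0.26, Trib1, a pseudokinase that steers protein degradation, by 1.39 ± 0.16, and F2rl1, the protease-activated receptor PAR2, by 1.37 ± 0.20. Epha2, the ephrin receptor whose upstream sequence holds the full cAMP element, had 6.68, 7.65 and 7.96 with desipramine and 6.14, 6.23, 6.15 and 6.19 with diazepam (1.35 ± 0.18, adjusted p = 7.54e-06), again without overlap.

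**Figure D3:**
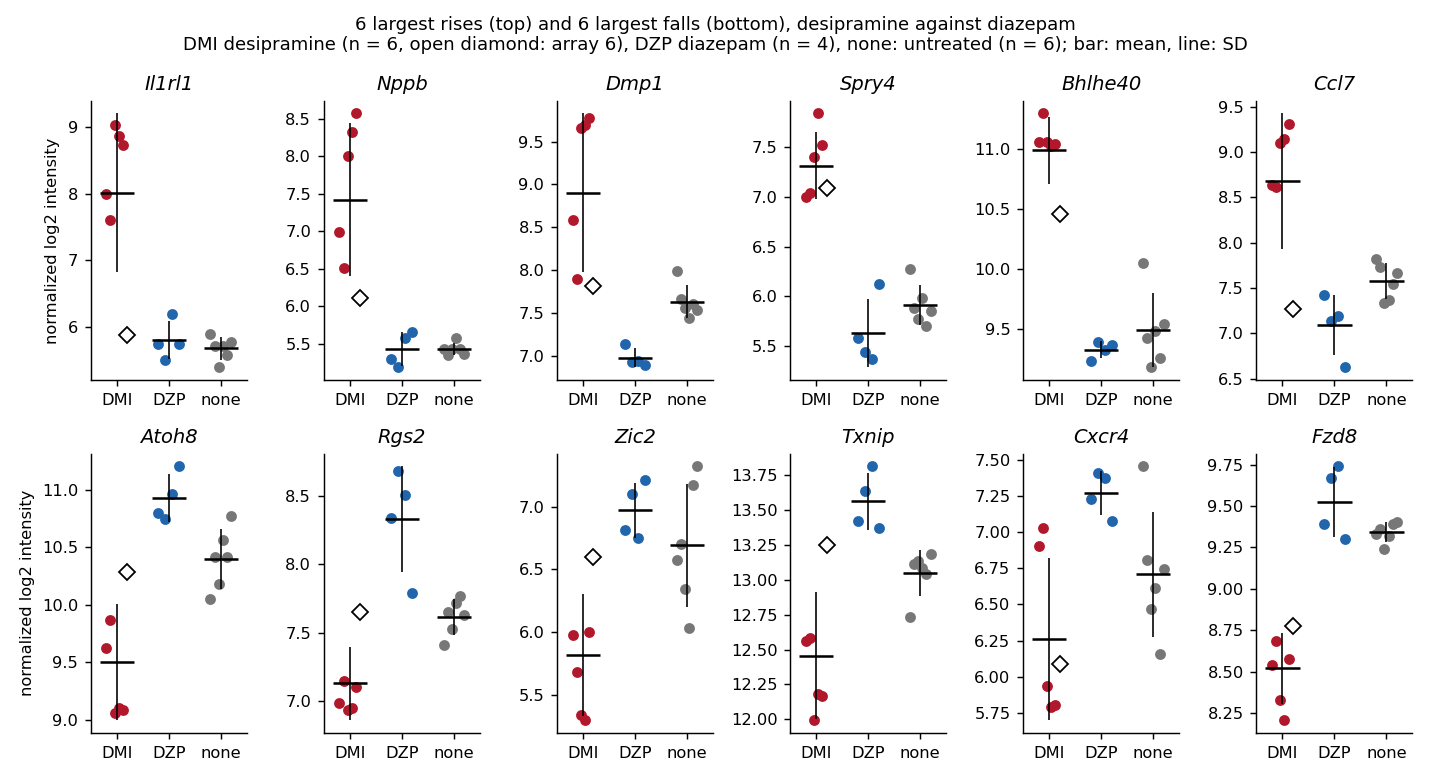
Normalized log2 intensity (y axis) on every array for the 6 largest rises (top row) and 6 largest falls (bottom row), with desipramine left (red, n = 6), diazepam next (blue, n = 4) and untreated cells right (grey, n = 6); horizontal bars are means, vertical lines SD, and the open diamond is desipramine array 6. The diamond is the desipramine array nearest to diazepam for Il1rl1, Nppb and Ccl7, and lies among the other desipramine arrays for Spry4.

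Targets of BMP signalling were lower with desipramine more often than higher. Of 13 measured genes of the list of BMP targets and Id genes, 6 were lower and 1 was higher with desipramine, with a median of -0.30, and the counts without array 6 were identical. Atoh8, a helix-loop-helix factor induced by BMP, had the largest fall, with 9.06, 9.36 and 10.28 in desipramine cells and 10.80, 10.74, 10.97 and 11.21 in diazepam cells (-1.43 ± 0.19, adjusted p = 1.3e-05). Smad6, an inhibitor of the BMP receptors that BMP itself induces, had 6.25, 6.58 and 6.95 against 7.41, 7.87, 7.45 and 7.53 (-0.98 ± 0.13, adjusted p = 7.54e-06). Neither gene overlapped between the drugs.

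Id1 and Id2 were lower with desipramine. Id1 had 10.71, 11.05 and 11.63 in desipramine cells and 12.05, 12.11, 11.76 and 12.17 in diazepam cells (-0.90 ± 0.13, adjusted p = 3.6e-05). Id2 had 11.35, 11.46 and 12.51 against 12.37, 12.68, 12.78 and 12.76 (-0.98 ± 0.18, adjusted p = 0.000613), and its overlap came from desipramine array 6. Id3 (-0.65 ± 0.19) and the Notch and BMP target Hey1 (-0.77 ± 0.14), named after their values were seen, passed as well, and the member that was higher was Hes1 (0.61 ± 0.12), a Notch target. The inhibitor gene Smad7, also named afterwards, differed by 0.34 without passing (adjusted p = 0.274).

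Other genes were among the 12 largest falls. Zic2, a zinc finger factor of the early nervous system, had 5.30, 5.83 and 6.60 in desipramine cells, where 5 of 6 arrays detected it, and 6.82, 7.10, 6.75 and 7.21 in diazepam cells (-1.15 ± 0.23, adjusted p = 0.000976). Txnip, which binds thioredoxin and restrains glucose uptake, had 11.99, 12.37 and 13.25 against 13.42, 13.63, 13.81 and 13.37 (-1.10 ± 0.16, adjusted p = 1.85e-05). Fzd8, a Wnt receptor, was even across arrays, with 8.21, 8.56 and 8.77 against 9.39, 9.67, 9.74 and 9.30, and was 2.01-fold lower with desipramine (SE 0.10 on the log2 scale, adjusted p = 8.73e-08). Ascl2, a target of Wnt signals in the mouse intestine, differed by -0.81 ± 0.15, with an overlap through array 6 at 7.77. Cdkl1, a kinase gene detected on no desipramine array and on all 4 diazepam arrays, was lower with desipramine, and diazepam was at least 1.29-fold higher (adjusted p = 2.87e-05).

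Each drug was also set beside untreated cells. Against untreated cells 635 probes (5.59%) passed with desipramine, on 6 arrays, and 90 (0.792%) with diazepam, on 4. Both comparisons share the same 6 untreated arrays, so only their own values are set side by side. Of the 919 probes called between the drugs, 458 passed with neither drug against untreated cells. Of the 12 largest rises, 11 passed with desipramine against untreated cells, all but Inhba, and 0 with diazepam in limma, where 2 had an unadjusted p under 0.05, both lower. The untreated arrays were uneven for some of these genes. For Phlda1, untreated array 1 (10.295) lay above every desipramine array (highest 10.289). For Klf10 it lay at 9.05, above desipramine array 6 (8.68). Of the 12 largest falls, 9 passed as lower with desipramine, and 3 passed as higher with diazepam, namely Rgs2, Hexim1 and Cdkl1.

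**Figure D4:**
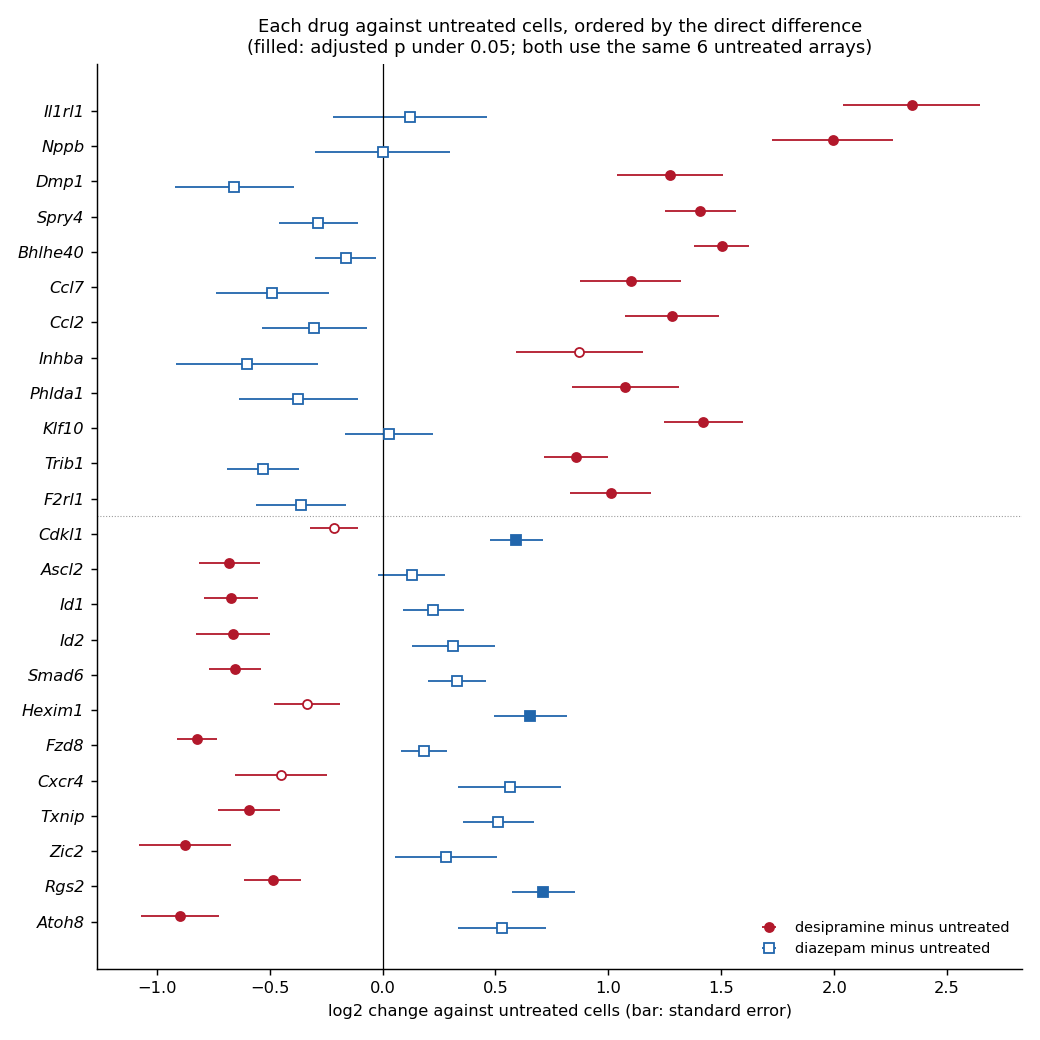
Log2 change against untreated cells (x axis, bars are standard errors) for the 12 largest rises (upper block) and 12 largest falls (lower block) of desipramine against diazepam, with red circles for desipramine and blue squares for diazepam; filled symbols passed an adjusted p of 0.05. Red symbols of the upper block lie between 0.86 (Trib1) and 2.34 (Il1rl1), and blue ones between -0.66 (Dmp1) and 0.12 (Il1rl1).

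In 3 named genes both drugs differed from untreated cells, in opposite directions. Ccn2, a matrix-associated growth factor of the SRF and YAP pathways, had 13.46, 13.60 and 13.73 with desipramine and 12.28, 12.59, 12.52 and 12.17 with diazepam, and untreated cells ranged from 12.77 to 13.18. Its change was 0.62 ± 0.09 with desipramine (adjusted p = 1.82e-05) and -0.59 ± 0.10 with diazepam (adjusted p = 0.000769). Myc changed by 0.73 ± 0.08 and -0.47 ± 0.09 in the same order (adjusted p = 7.89e-07 and 0.00539), and Rgs2 by -0.49 ± 0.13 and 0.71 ± 0.14 (adjusted p = 0.0169 and 0.00715). The 3 groups did not overlap for Ccn2 and Myc.

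For some genes only the diazepam side passed. Pparg, a nuclear receptor of fat cell differentiation, had 7.55, 7.67 and 7.84 with desipramine and 6.82, 6.47, 6.80 and 6.41 with diazepam (1.05 ± 0.11, adjusted p = 3.65e-07). Against untreated cells it changed by 0.30 ± 0.10 with desipramine (adjusted p = 0.0865) and by -0.75 ± 0.11 with diazepam (adjusted p = 0.000285). Hexim1, an inhibitor of the elongation kinase P-TEFb, had 7.02, 7.43 and 8.01 with desipramine and 8.19, 8.81, 8.70 and 8.17 with diazepam, with changes of -0.33 ± 0.14 (adjusted p = 0.204) and 0.65 ± 0.16 (adjusted p = 0.0447). Chosen after their values were seen, Foxa2, a forkhead factor, changed by 0.23 ± 0.15 with desipramine and -1.07 ± 0.17 with diazepam (adjusted p = 0.49 and 0.000668). Ccrl2, a receptor that binds the attractant chemerin, likewise chosen, changed by -0.15 ± 0.12 and -1.21 ± 0.13 (adjusted p = 0.555 and 1.71e-06).

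Stress and metal response genes differed in part. Hmox1, haem oxygenase 1, had 10.53, 10.86 and 10.93 in desipramine cells and 9.34, 9.72, 9.42 and 9.34 in diazepam cells (1.32 ± 0.12, adjusted p = 1.54e-08). With Mafg (0.85 ± 0.07, adjusted p = 9.25e-10), a small Maf partner of Nrf2, it made up the 2 of 16 genes of the Nrf2 and metal list that were higher, and Tfrc, the transferrin receptor, was the 1 lower (-0.79 ± 0.24, adjusted p = 0.0334). Without array 6 the list counts were 4 and 1, and the Tfrc call was lost in 8 of the 10 fits that left out 1 array. Of 23 measured genes of the integrated stress response, 4 were higher and 0 lower, with a median of 0.16, and 5 and 0 passed without array 6. At an unadjusted p under 0.05 the counts were 9 and 1, against 2344 of 11364 over all probes in either direction. Gdf15, a stress cytokine, was detected on 6 of 6 desipramine and 0 of 4 diazepam arrays and was at least 1.83-fold higher (adjusted p = 0.000213). Atf4, the transcription factor at the head of that response, named after its value was seen, differed by 0.42 ± 0.09, and its targets Trib3 (0.57 ± 0.20, adjusted p = 0.0827) and Chac1 (0.53 ± 0.18, adjusted p = 0.065) did not pass. Chac1 passed without array 6 (adjusted p = 0.0385), and over 24 alternatives Trib3 passed in 3 and Chac1 in 4.

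The other lists had at most 3 members past the threshold in either direction. Over all 7958 genes 5.25% were higher and 4.01% lower, or 6.38% and 5.2% without array 6. SRF and cytoskeleton targets were 3 of 13 higher and 0 lower (2 without array 6), with Ccn2 among them. Clock genes were 3 of 13 higher, namely Bhlhe40, Cry1 and Per2, and p53 targets 3 of 8 higher and 1 lower (4 and 1 without array 6). Receptors of growth factors and related signals were 2 of 12 higher and 3 lower, and glucocorticoid targets 2 of 13 and 2 (3 and 3 without array 6). Cholesterol synthesis (17 genes) was 2 and 2, fatty acid and lipid synthesis (18) 3 and 2 (2 and 3 without array 6), and transcription elongation and chromatin (11) 2 and 1. Lysosome and autophagy genes were lower in 3 of 22 and higher in 0. At an unadjusted p under 0.05 these counts were 3 and 4, against 2344 of 11364 over all probes in either direction. Cell cycle genes had 1 of 22 higher, the cyclin gene Ccnd1 (0.59 ± 0.10, adjusted p = 0.000365), or 2 and 1 without array 6. Hypoxia and glycolysis had 1 of 18 lower and ribosomal proteins 1 of 25 higher. The shares of cell cycle (4.55% higher), hypoxia (5.56% lower) and ribosomal genes (4% higher) lay near those over all genes.

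**Figure D5:**
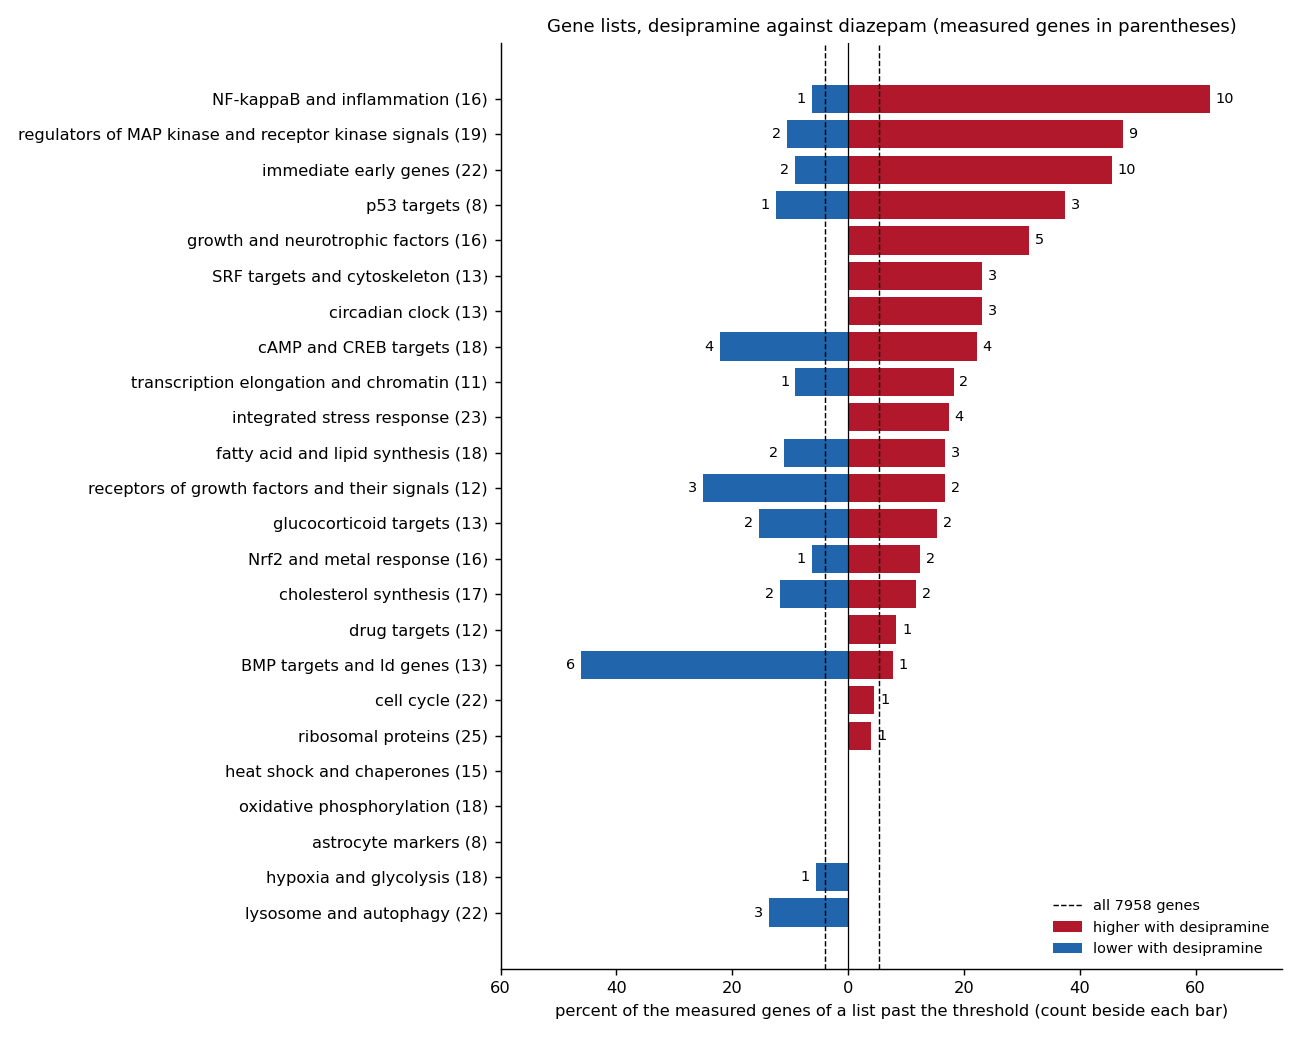
Bars give the percent of the measured genes of each list that were higher (red, right) or lower (blue, left) with desipramine than with diazepam at an adjusted p under 0.05, with the gene count beside each bar and dashed lines at the percent over all 7958 genes (5.25 higher, 4.01 lower). Lists with at least 8 measured genes are drawn, and the inflammatory list has 10 of 16 higher and the BMP list 6 of 13 lower.

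Heat shock genes (15 measured), oxidative phosphorylation genes (18) and astrocyte markers (8) had 0 members past the threshold in limma, and without array 6 as well. At an unadjusted p under 0.05 they had 3 higher and 2 lower, 0 and 0, and 0 and 1. Over all probes, 2344 of 11364 reached that p. Over 24 alternatives the chaperone genes Dnaja1, Pdia4 and Bag3 passed in 6, 5 and 2, and the astrocyte marker S100b in 5. The median differences of these 3 lists were -0.10, -0.05 and -0.03. Among markers of other cells, Nefl, the light neurofilament chain, was higher (0.33 ± 0.09, adjusted p = 0.0194) and Olig1, a factor of the oligodendrocyte lineage, was lower (-0.78 ± 0.16, adjusted p = 0.00171). The Nefl call was lost without diazepam array 6 (adjusted p = 0.16). Without desipramine array 6 the oligodendrocyte list had 1 higher and 1 lower, the higher one being Sox10 (0.40 ± 0.13, adjusted p = 0.0477), a factor of that lineage. Summed over the 6 measured neuron markers, log2 values ranged from 41.2 to 42 with desipramine and from 40.4 to 41.4 with diazepam, and over the 7 oligodendrocyte markers from 59.4 to 60.9 and from 59.4 to 61.6. The part of these markers in the results was not tested.

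The drugs' own targets were mostly dim in C6 cells. Of 29 listed genes, 22 had a probe and 12 were measured. Only Htr2a, the serotonin 2A receptor, passed. It had 6.46, 6.70 and 6.83 in desipramine cells and 5.98, 6.20, 6.03 and 5.83 in diazepam cells, without overlap (0.66 ± 0.13, adjusted p = 0.000952). Its change against untreated cells did not pass with either drug (0.22 ± 0.11 with desipramine and -0.43 ± 0.13 with diazepam, adjusted p = 0.319 and 0.138).

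The noradrenaline transporter gene Slc6a2, the main target of desipramine, was detected on 2 of 6 desipramine and 1 of 4 diazepam arrays, and the serotonin transporter gene Slc6a4 on 0 of 6 and 2 of 4. Gabrb2, a subunit of the GABA-A receptor, was detected on 1 of 6 and 0 of 4. Tspo, the mitochondrial protein that binds some benzodiazepines, and Dbi, the endogenous ligand of benzodiazepine sites, were detected on all 10 arrays. Tspo differed by -0.01 (95% interval -0.17 to 0.16) and Dbi by -0.07 (-0.21 to 0.07). The remaining measured targets were the receptor genes Adra1a, Adra1b, Adra2c, Chrm3 and Hrh1 and the lysosomal sphingomyelinase gene Smpd1, with differences from -0.03 (Smpd1) to 0.21 (Adra1b), none past the threshold.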

How the data were processed

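RNA of 28 samples was hybridised to Illumina rat bead arrays, and the arrays were read with GenomeStudio 1.9.0, per the submitters' processing notes. The authors deposited a linear intensity and a detection p-value for each of 22523 probes, and normalized intensity values whose method is not given in the sources used here, which served as an alternative. Columns of per-sample values that match no sample (4) were not used.

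Intensities were background-corrected and quantile-normalized with neqc (limma 3.58.1, R 4.3.3, offset 16, negative controls inferred from the detection p), which pulls differences of dim probes toward 0. Probes detected on at least 4 of 28 arrays were kept (11364). All 28 arrays entered 1 limma fit with 1 mean per group; tests were two-sided, with Benjamini-Hochberg adjustment over all probes kept. The comparison rests on 6 desipramine and 4 diazepam arrays. Probe symbols came from the platform annotation: 13793 probes had 1 symbol, 0 several and 8730 none, and 172 called probes are unnamed. Symbols of 13752 were found by gene ID in RefSeq (GRCr8).

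The text names the 12 largest rises and falls among probes past the threshold with a single symbol, provided that all arrays of the brighter group detected the probe and lay above the mean of the dimmer group, plus up to 4 members of each of 28 lists (534 genes) with the largest change, and all measured drug targets. The comparison, lists and members were chosen with earlier results of these data known. The rule for the largest rises and falls favours genes whose groups do not overlap, so their lack of overlap is not further support. The fit was tested on simulated data. Alternatives covered normalization, background, filter, arrays, weights, replicate numbers and leaving out each array.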

Additional observations from a re-analysis of the deposited data

Results flagged for a closer look

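Groups of values of the named genes and of the arrays, 238 in all, were examined within each drug for 1 array far from the others by Dixon's criterion, and 18 held one. Chance flags about 1 group in 20.

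Of the 18, 9 concerned desipramine array 6, always on the side of the diazepam values. It was low for Bhlhe40 (10.46), Ccl7 (7.27), Phlda1 (8.93), Klf10 (8.68), Cxcl1 (8.86), Ier3 (9.05) and Hbegf (8.15), and high for Rgs2 (7.65) and Ctsk (5.60), a cysteine protease of the lysosome. These genes are not independent, as they were read from the same array.

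Other desipramine arrays stood apart in 3 genes. Gadd45a, a growth arrest gene, was high on array 5 (9.96), the ribosomal gene Rpl7 was low on array 1 (9.97), and Atp6v0d1, a subunit of the lysosomal proton pump, was low on array 3 (9.13).

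Diazepam arrays stood apart in 6 genes. Array 6 was low for Gdf15 (4.90) and Nefl (9.56) and high for Slc6a2 (5.61). Array 5 was low for Cry1 (8.22), and array 4 was high for Hk2, a hexokinase (7.77), and low for Olig1 (6.13).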

How the results depend on the processing

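Probe counts (main 919, with 513 higher and 406 lower) moved by over 1.5 times in 1 direction or both under these settings. With only the 10 arrays fitted, 549 passed (201 lower). With only desipramine arrays 1, 4, 5 and 6 beside the whole other groups, 592 passed (239 lower). Arrays numbered 1 to 4 gave 456 (262 higher, 194 lower), and arrays numbered 5 and 6 gave 59 (47 higher, 12 lower). A replicate block changed the counts to 1425 (675 lower) when fixed and 1418 (659 lower) when random, and to 369 (234 higher, 135 lower) over the 8 arrays with shared numbers. The numbers were not taken to pair the arrays, because same-numbered arrays of both drugs correlated at 0.0174 to 0.382 (n = 4) after group means were removed, and differently numbered ones at -0.376 to 0.301 (n = 20), although 3 of the 4 same-numbered pairs were over 0.1 and the correlation estimated within numbers was 0.228. Of the 67 named genes called, the fixed and the random block each kept all 67, and they added 11 and 12 of the other named genes. Leaving out 1 array gave 685 to 1168 (404 to 634 higher, 278 to 534 lower), the highest without desipramine array 6. The cause of these shifts was not tested.

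Normalization, background correction, filters and array weights gave 772 to 1013, and the share higher, 55.8% in the main setting, reached 64.3% with the authors' normalized values. None of these alternatives reversed a called difference. All 24 genes with the largest differences passed in each fit that left out 1 array. They were picked for size on these same arrays, so this is not independent support. Of the other named genes, 18 lost the call in at least 1 such fit. Few diazepam arrays and the dim signals of Dusp8, Gdf15, Areg, Maff and Cdkl1 limit what can be resolved.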
